A study of Homo sapiens with 12 samples.

Results

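The unfolded protein response genes described here are 10 genes picked by symbol: ERN1, EIF2AK3, ATF6, XBP1, ATF4, DDIT3, HERPUD1, SYVN1, SEL1L and EDEM1. All 10 were among the 27825 named genes of the antagonist count table, and 0 of 10 were among the 904 genes of the agonist count table, so their levels with the agonist antibody are not analysed here. The libraries came from U937, a human pro-monocytic cell line that the labels call acute myeloid leukaemia cells. Every group, controls included, was pretreated with 50 ng/mL interferon gamma. The antagonist set holds 3 libraries of cells given a LILRB3 antagonist antibody and 3 of cells given IgG for 72 hours, and the agonist set holds 3 libraries with a LILRB3 agonist antibody and 3 with an IgG of their own. The labels write the antibody dose as 5 mg/mL, the unit being left as written. No antibody clone is named. Nothing in the labels ties the 3 libraries of a group to separate cultures, so the p-values reflect the spread among libraries, which may be purely technical.

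The unfolded protein response matches the folding capacity of the endoplasmic reticulum (ER) to its load of new proteins. In the textbook scheme, 3 sensors in the ER membrane are held inactive by the chaperone HSPA5. IRE1 alpha, encoded by ERN1, cuts an intron out of XBP1 mRNA so that an active transcription factor is made. PERK, encoded by EIF2AK3, phosphorylates the initiation factor eIF2 alpha, which lowers translation in general and raises that of ATF4, an activator of DDIT3. ATF6 moves to the Golgi, where proteases free its transcription factor domain. The targets include ER chaperones and the machinery of ER-associated degradation, which returns misfolded proteins to the cytosol. The XBP1 branch is known for its part in plasma cell differentiation and in the function of dendritic cells and macrophages.

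Gene counts sum both forms of XBP1 mRNA, so splicing by IRE1 could not be read from these data. The 2 forms are shown because they define what an XBP1 count can mean. In GENCODE release 29 (GRCh38) the transcript XBP1-201 (1850 bases) carries a stretch of 26 bases that XBP1-207 (1794 bases) lacks at the same place. The stretch is given in capitals with 20 bases on each side.
XBP1 site cut by IRE1: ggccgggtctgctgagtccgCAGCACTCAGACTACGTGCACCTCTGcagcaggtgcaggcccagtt

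Promoters of 2 members are shown because they alone among the 10 held a known response element of this pathway in the window searched. The window ran from 250 bases before to 50 bases after each RefSeq start site (GRCh38.p14), with 13 windows for the 10 genes. The search used both strands and 4 motifs: the ER stress response element ERSE (CCAAT, 9 bases of any kind, CCACG), ERSE-II (ATTGG, 1 base of any kind, CCACG), the XBP1 and ATF6 element UPRE (TGACGTGG) and the ATF4 element CARE (TGATGNAA). ERSE and ERSE-II share CCACG, whose reverse complement also lies in UPRE. Of 35116 windows of all genes, 0.0769% held ERSE, 0.0541% ERSE-II, 0.729% UPRE and 3.62% CARE. In XBP1 an ERSE ran from -52 to -34, counting back from the start site. In HERPUD1 an ERSE-II ran from -117 to -107, and a CARE on the reverse strand from -176 to -169. The promoter of HSPA5, the chaperone that holds the sensors, is set beside them, with an ERSE from -66 to -48. The 250 bases before each start site follow, on the gene's strand, with the motifs in capitals. These are matches of letters, and a gene without a match lacks only these letters in this window.
XBP1, chr22:28800570-28800819, minus strand: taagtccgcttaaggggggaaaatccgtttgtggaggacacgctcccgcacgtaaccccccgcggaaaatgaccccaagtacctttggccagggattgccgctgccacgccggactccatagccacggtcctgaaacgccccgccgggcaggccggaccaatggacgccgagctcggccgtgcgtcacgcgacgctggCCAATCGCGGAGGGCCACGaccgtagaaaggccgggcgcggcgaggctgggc
HERPUD1, chr16:56931892-56932141, plus strand: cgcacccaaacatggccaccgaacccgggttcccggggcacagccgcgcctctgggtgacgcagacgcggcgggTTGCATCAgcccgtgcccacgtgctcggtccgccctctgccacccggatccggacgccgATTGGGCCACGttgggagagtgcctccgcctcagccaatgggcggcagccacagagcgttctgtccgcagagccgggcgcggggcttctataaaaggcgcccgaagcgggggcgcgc
HSPA5, chr9:125241344-125241593, minus strand: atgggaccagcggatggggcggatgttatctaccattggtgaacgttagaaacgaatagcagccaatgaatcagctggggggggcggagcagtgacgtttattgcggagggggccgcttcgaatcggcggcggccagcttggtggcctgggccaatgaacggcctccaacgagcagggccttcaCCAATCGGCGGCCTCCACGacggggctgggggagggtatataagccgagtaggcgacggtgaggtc

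With the antagonist antibody the members did not share a direction. The sensor genes ERN1 and ATF6 and the ubiquitin ligase gene SYVN1 rose, while the transcription factor genes XBP1 and ATF4 and the degradation factor gene HERPUD1 fell. Only the calls of ERN1 and XBP1 were kept in all 12 alternative analyses. HERPUD1 and SYVN1 kept theirs in 10 each, ATF6 in 4 and ATF4 in 3. DDIT3, EIF2AK3, SEL1L and EDEM1 did not pass the test. The test was edgeR's quasi-likelihood test over all 13778 genes that passed the filter on low counts, all 10 members among them, with Benjamini-Hochberg adjustment at 0.05. Of all tested genes 36.1% passed, 15.6% higher and 20.5% lower, so 3 members higher and 3 lower stand beside a background in which calls were common. The median log2 fold change of the members was -0.11 against -0.01 for all tested genes, and their median absolute change was 0.23, also the median of all tested genes.

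Total counts ran from 17142362 to 18820312 with IgG and from 17035334 to 17771980 with the antagonist, and libraries are numbered here by column order. Among IgG libraries, library 1 was the odd one (chi-square divided by degrees of freedom: 10.4 and 18.5 with the others, 4.32 for the remaining pair). The summed share of 86 ribosomal protein genes was 6.46% to 7.63% with IgG and 5.29% to 5.55% with the antagonist. The part of the ribosomal share in the members' results was not tested. Values without IgG library 1 are given below for some genes. Without it ATF6 was 0.31 and no longer past the threshold (edgeR adjusted p = 0.055). Log2 fold changes without it were 0.65 for ERN1, -0.14 for ATF4, -0.23 for HERPUD1 and -0.05 for EIF2AK3. LILRB3 itself had 2, 1 and 2 counts in IgG and 5, 2 and 3 in antagonist libraries. Of 13 myeloid markers 12 were tested, none was at 0 in all 6 libraries, and their summed level was 5927 to 6793 CPM, the usual scaling of counts to library size, in IgG and 5583 to 5961 CPM in antagonist libraries. With the antagonist 3 of the 12 fell (CTSG -0.35, LYZ -0.46 and PTPRC -0.23) and 0 rose. Of all tested genes 20.5% fell and 15.6% rose. CD14, a defining monocyte marker, had only 22 counts over the IgG and 13 over the antagonist libraries. MPO had 25 and 43. Erythroid and megakaryocyte markers summed to 3.99 to 4.84 and 3.49 to 3.82 CPM (HBB, PF4 and PPBP at 0), epithelial and fibroblast markers to 3.35 to 4.68 and 2.96 to 5.68 CPM (EPCAM at 0), and B cell markers to 32.0 to 33.8 and 35.0 to 38.3 CPM (MS4A1 at 0). T and NK markers summed to 628 to 654 and 589 to 606 CPM, of which only NKG7 and CD4, a gene that monocytes also express, passed the filter on low counts, with CD3G and KLRD1 at 0.

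**Figure D1:**
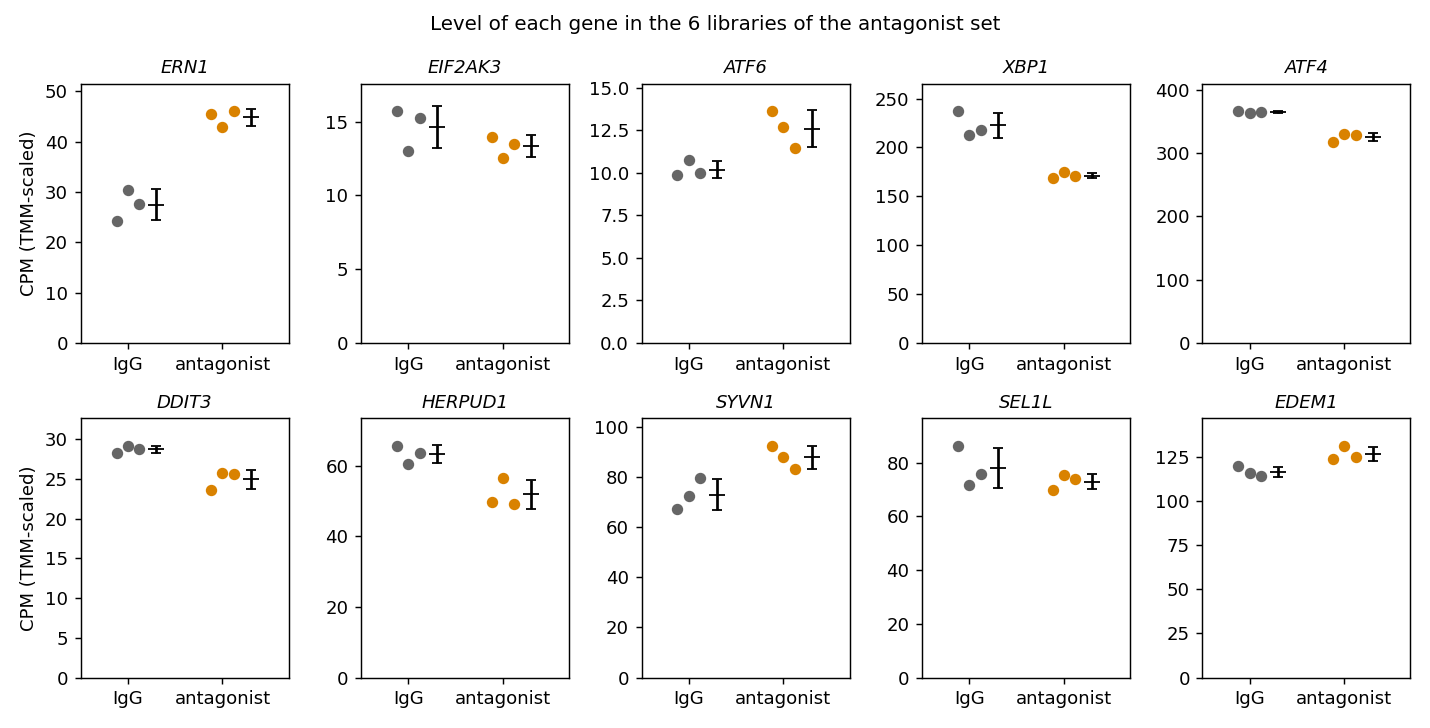
Level of each gene in TMM-scaled CPM (vertical axis, from 0) in the 3 IgG libraries (grey) and the 3 antagonist libraries (orange), with the mean ± SD to the right of the points. ERN1 lies between 24.3 and 30.4 CPM with IgG and between 43.0 and 46.0 CPM with the antagonist, while XBP1 lies between 213 and 237 CPM with IgG and between 169 and 175 CPM with the antagonist.

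Among the sensors, ERN1 (chromosome 17, 64039142 to 64130144, GRCh38.p14, as for all positions here) had TMM-scaled levels of 24.3, 30.4 and 27.5 CPM in IgG libraries 1, 2 and 3 and of 45.5, 43.0 and 46.0 CPM in antagonist libraries 1, 2 and 3. Every antagonist library lay above every IgG library. The mean was 27.4 ± 3.1 CPM with IgG and 44.8 ± 1.6 CPM with the antagonist (SD, n = 3), a 1.64-fold level and a log2 fold change of 0.71 ± 0.09 (SE, edgeR adjusted p = 0.000213). Its absolute change exceeded that of 96.0% of tested genes. In bulk libraries a shift in the mix of cells and a shift in RNA per cell cannot be told apart.

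ATF6 (chromosome 1, 161766320 to 161964070), the membrane-bound factor, was counted at 9.84, 10.7 and 9.98 CPM with IgG and at 13.6, 12.7 and 11.5 CPM with the antagonist. The groups did not overlap, and antagonist library 3 was the nearest to the controls. The log2 fold change was 0.30 ± 0.11 (SE, adjusted p = 0.0454). This call depended on the analysis. It was kept in 4 of 12 alternative analyses, with adjusted p between 0.019 and 0.174, and the direction was higher in all 12. A transcribed processed pseudogene, AL391825.1, lies within ATF6 on the same strand, and its reads could be shared.

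EIF2AK3 (chromosome 2, 88556741 to 88628145), the PERK gene, had 15.7, 13.0 and 15.2 CPM with IgG and 14, 12.6 and 13.5 CPM with the antagonist. The groups overlapped, with IgG library 2 inside the antagonist range. Its log2 fold change was -0.13 ± 0.11 (adjusted p = 0.342). The 3 sensor genes thus gave 2 rises and 1 difference within the spread between libraries. Whether ERN1 and EIF2AK3 differ in their response was not tested. An antisense gene, AC104134.1, overlaps EIF2AK3 over 18870 bases.

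Among the transcription factors, XBP1 (chromosome 22, 28794560 to 28800569) had 237, 213 and 217 CPM with IgG and 169, 175 and 170 CPM with the antagonist. IgG library 1 was the highest, and all antagonist libraries lay below all IgG libraries. The mean went from 222 ± 13 to 171 ± 3 CPM, a 0.77-fold level, with a log2 fold change of -0.38 ± 0.06 (adjusted p = 0.000728). Without IgG library 1 it was -0.30, and once trends with transcript length and GC content were taken out it was -0.19, past the threshold in both. The ERSE shown above lies in the promoter of this gene.

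ATF4 (chromosome 22, 39520559 to 39522686), the factor whose translation rises when PERK is active, was counted at 366, 363 and 365 CPM with IgG and at 318, 330 and 329 CPM with the antagonist. The groups did not overlap and the IgG libraries lay close together. The log2 fold change was small, -0.16 ± 0.05 (adjusted p = 0.0306). The call was kept in 3 of 12 alternatives, with adjusted p between 0.0293 and 0.256, and the value was -0.08 when library totals were used without TMM factors.

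DDIT3 (chromosome 12, 57516588 to 57520517), which encodes the death-associated factor CHOP, had 28.2, 29.1 and 28.8 CPM with IgG and 23.6, 25.7 and 25.6 CPM with the antagonist. The groups did not overlap, yet the gene missed the threshold, at -0.20 ± 0.08 (adjusted p = 0.0542). With those length and GC trends taken out the value was 0.01. In GENCODE release 29 DDIT3 overlaps MARS1 and MBD6 on the opposite strand and AC022506.1 on its own strand, and the sources used here do not say whether reads were counted by strand. MBD6 rose by 0.60 ± 0.07 and MARS1 stood at -0.01 ± 0.06.

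Among genes of ER-associated degradation, HERPUD1 (chromosome 16, 56932142 to 56944864), which helps assemble the degradation complex, had 65.5, 60.6 and 63.7 CPM with IgG and 49.8, 56.4 and 49.2 CPM with the antagonist. The groups did not overlap, with antagonist library 2 the nearest to the controls. The mean went from 63.2 ± 2.5 to 51.8 ± 4.0 CPM, and the log2 fold change was -0.29 ± 0.07 (adjusted p = 0.008). The call was lost without antagonist library 1 (-0.26, adjusted p = 0.0515) or antagonist library 3 (-0.25, adjusted p = 0.052) and kept in the other 10 alternatives.

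SYVN1 (chromosome 11, 65127279 to 65134519) encodes HRD1, the ubiquitin ligase at the core of that complex. Its levels were 67.0, 72.3 and 79.3 CPM with IgG and 92.2, 87.8 and 83.2 CPM with the antagonist. The groups did not overlap, and the gap between IgG library 3 and antagonist library 3 was narrow. The mean went from 72.9 ± 6.2 to 87.7 ± 4.5 CPM, with a log2 fold change of 0.27 ± 0.07 (adjusted p = 0.0123). Without antagonist library 1 the value was 0.23 (adjusted p = 0.0781), and with the length and GC trends taken out it was 0.09 (adjusted p = 0.38). GENCODE models of SYVN1 overlap the ribosomal protein gene FAU on the same strand, which fell by 0.51 ± 0.07, and MRPL49 on the opposite strand (-0.11 ± 0.08).

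SEL1L (chromosome 14, 81471547 to 81533853), the partner that stabilises HRD1, had 86.1, 71.8 and 75.6 CPM with IgG and 69.8, 75.2 and 73.8 CPM with the antagonist. The groups overlapped, and IgG library 1 was well above the rest. The log2 fold change was -0.09 ± 0.07 (adjusted p = 0.34) and 0.01 without IgG library 1. EDEM1 (chromosome 3, 5187707 to 5219958), a lectin that passes mannose-trimmed glycoproteins to degradation, had 119, 116 and 114 CPM with IgG and 124, 131 and 125 CPM with the antagonist. Its groups did not overlap, but the difference of 0.12 ± 0.06 missed the threshold (adjusted p = 0.121). It passed without IgG library 1 (0.16) and with library totals (0.20).

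**Figure D2:**
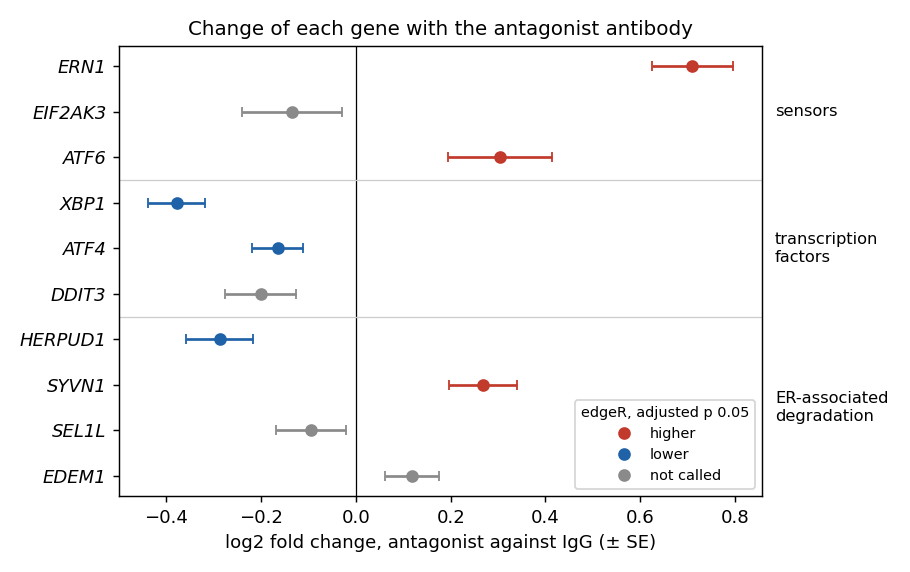
Log2 fold change of each gene, antagonist against IgG (points, with bars of ± 1 SE), grouped by role, with colour showing the call at an edgeR adjusted p of 0.05. ERN1 at 0.71 lies farthest to the right and XBP1 at -0.38 farthest to the left.

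The groups of libraries did not overlap for 8 of the 10 genes, 4 higher and 4 lower, with EIF2AK3 and SEL1L the exceptions. Over all tested genes the groups did not overlap for 49.0%, 21.9% higher and 27.1% lower. Reads per gene can also be compared within a library, where no scaling enters. Such ratios were formed for 3 pairs chosen after their values were seen. For every 100 counts of XBP1, ERN1 had 10.3, 14.3 and 12.7 counts in IgG libraries and 26.9, 24.6 and 27.0 in antagonist libraries. For every 100 counts of SEL1L, SYVN1 had 77.8, 101 and 105 counts with IgG and 132, 117 and 113 with the antagonist. For every 100 counts of HSPA5, ATF6 had 0.994, 1.11 and 1.07 counts with IgG and 1.73, 1.60 and 1.47 with the antagonist. The groups did not overlap in any of the 3 ratios, which the choice of pairs made likely, and no test is given.

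Levels between genes were compared per kilobase of the longest GENCODE transcript. In IgG libraries ATF4 stood highest at 181 ± 1 CPM per kilobase (SD, n = 3), then XBP1 at 102 ± 6 and DDIT3 at 26.9 ± 0.4. HERPUD1 followed at 21.5 ± 0.8, EDEM1 at 18.9 ± 0.5, SYVN1 at 16.0 ± 1.4 and SEL1L at 9.82 ± 0.93. The sensors were lowest, with ERN1 at 3.48 ± 0.39, EIF2AK3 at 3.15 ± 0.31 and ATF6 at 1.36 ± 0.06. The ranges of ERN1 and EIF2AK3 overlapped (3.09 to 3.86 and 2.80 to 3.38), and those of the other neighbours did not. With the antagonist the order was the same but for HERPUD1, which stood behind EDEM1 and SYVN1 at 17.6 ± 1.4. The range of SYVN1 (18.3 to 20.3) then overlapped those of HERPUD1 (16.7 to 19.1) and EDEM1 (20.1 to 21.3). ERN1 at 5.69 ± 0.21 then lay above EIF2AK3 at 2.87 ± 0.16 with no overlap.

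Across the 6 libraries the log2 levels of ERN1 and XBP1 had a Pearson correlation of -0.997, given as a description, since the points share 2 groups of libraries and any pair of genes that differ between the groups correlates. With XBP1 the other members had r between -0.91 (SYVN1) and 0.97 (ATF4). XBP1 was also compared over the 6 libraries with 10669 genes with a mean of at least 5 CPM. Most like it were the nucleotide kinase gene CMPK1 (r = 0.999), the pyrophosphatase gene PPA1 (0.999) and MOSPD2 (0.999). Picking the highest of 10669 correlations over 6 points makes values near 1 likely. CMPK1 and PPA1 fell with the antagonist, while MOSPD2 (-0.19 ± 0.07) did not pass.

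**Figure D3:**
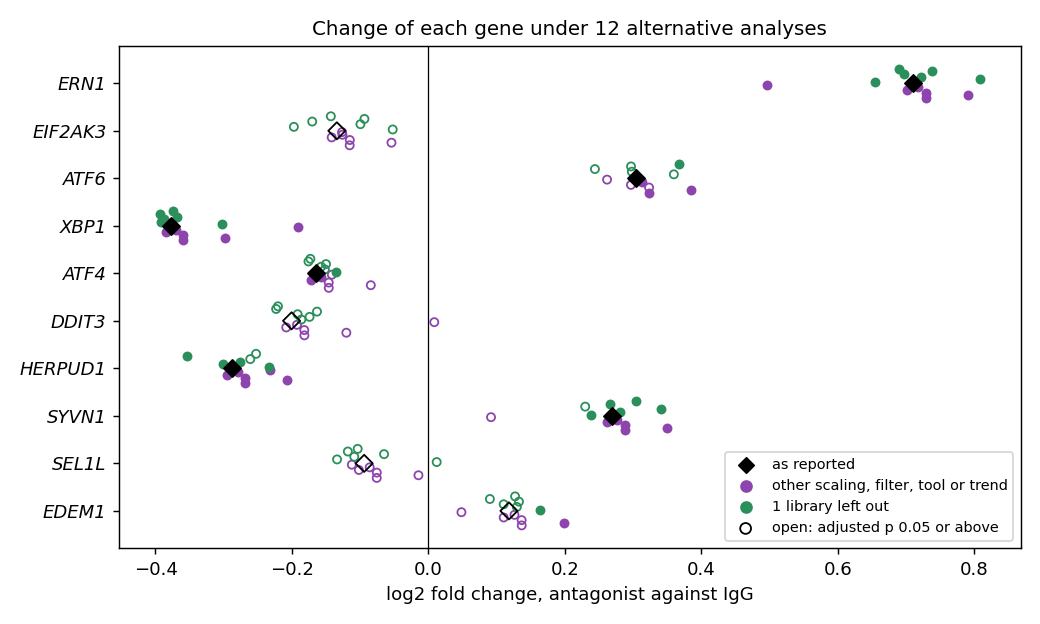
Log2 fold change of each gene as reported (black diamonds) and under 12 alternatives, 6 with another scaling, filter, tool or trend removal (purple) and 6 with 1 library left out (green). Filled symbols passed an adjusted p of 0.05 and open ones did not. ERN1 and XBP1 are filled throughout, ERN1 between 0.50 and 0.81 and XBP1 between -0.39 and -0.19.

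Calls of single members depended on the libraries used. ERN1 and XBP1 passed in all 12 alternatives, HERPUD1 and SYVN1 in 10 each, ATF6 in 4 and ATF4 in 3. Without antagonist library 1 only ERN1 and XBP1 passed, and 3143 genes passed in all. Without antagonist library 3 HERPUD1 and ATF4 were lost and 3190 genes passed.

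Of the other genes of this pathway more fell than rose with the antagonist. They were covered by 5 further lists of 98 genes, 96 of them tested, of which 44 fell and 5 rose. The median log2 fold change of the tested ones was -0.18, beside -0.01 for all tested genes, and 36.1% of all tested genes passed. When library totals were used without TMM factors 27 fell and 7 rose. The number that fell was 30 without IgG library 2 and 29 without antagonist library 1 or 3. The lists were drawn up with earlier results of these data known.

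Of 20 ER chaperones and folding enzymes 15 fell and 0 rose (median -0.26), a share of 75% beside 36.1% of all tested genes. Over 12 alternatives 11 to 15 fell and 0 rose. The number that fell was 11 with library totals and without IgG library 2 or antagonist library 1. HSPA5, which binds the lumenal side of the sensors, had 990, 966 and 936 CPM with IgG and 787, 790 and 777 CPM with the antagonist, a log2 fold change of -0.30 ± 0.05 (adjusted p = 0.00149). All 3 antagonist libraries lay below all IgG libraries, and HSPA5 passed in all 12 alternatives. DNAJB9, a co-chaperone of HSPA5 and a classic XBP1 target, had 24.8, 21.1 and 20.8 CPM with IgG and 14.5, 15.8 and 13.7 CPM with the antagonist (-0.60 ± 0.10, adjusted p = 0.00097). It was the largest change among the genes of the 5 lists that passed. SDF2L1, another partner of HSPA5 (-0.39 ± 0.06), the proline isomerase PPIB (-0.38 ± 0.06) and the secreted factor MANF (-0.34 ± 0.07) also fell. HYOU1 (-0.02 ± 0.06), DNAJC3 (-0.10 ± 0.06), ERO1A (-0.08 ± 0.08), ERO1B (-0.10 ± 0.08) and CRELD2 (-0.16 ± 0.06) did not pass.

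In the list of translocation genes and partners of IRE1, 11 of 19 tested genes fell and 1 rose (median -0.28). That share was 63.2%, beside 36.1% of all tested genes. The channel subunit SEC61G (-0.58 ± 0.09), the signal peptidase subunits SPCS1 (-0.46 ± 0.07) and SPCS2 (-0.41 ± 0.10) and the translocation factor SEC62 (-0.46 ± 0.07) fell. RTCB, the ligase that joins the ends of XBP1 mRNA after IRE1 has cut it, fell by 0.33 ± 0.06. TRAF2, the adaptor that IRE1 recruits, rose by 0.21 ± 0.07. The list had 0 higher calls without antagonist library 1, 2 or 3. The same held with no filter on low counts and with length and GC trends taken out. The other genes of the list that fell were SEC61A1, SEC61B, SRPRB, SSR1, SSR3 and KDELR2. The 7 that did not pass were SPCS3 (-0.12 ± 0.07), SEC63 (-0.15 ± 0.06), SRPRA (-0.06 ± 0.06), KDELR1 (-0.07 ± 0.05), MAP3K5 (0.07 ± 0.06), ZBTB8OS (-0.21 ± 0.12) and BLOC1S1 (-0.36 ± 0.15). With the length and GC trends taken out 6 genes of this list fell. SEC61G (-0.27) and SPCS2 (-0.23) were no longer past the threshold then, and without antagonist library 3 7 genes of the list fell.

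Of 23 other genes of ER-associated degradation, 10 fell and 1 rose (median -0.17), a share of 47.8% beside 36.1% of all tested genes. The extraction ATPase VCP (-0.36 ± 0.05), the ubiquitin-conjugating enzyme UBE2J1 (-0.31 ± 0.06) and the channel protein DERL1 (-0.30 ± 0.06) fell, and the conjugating enzyme UBE2G2 rose by 0.23 ± 0.05. The other 12 did not pass, among them DERL2 (-0.13 ± 0.10), DERL3 (0.11 ± 0.10), UBE2J2 (0.02 ± 0.06), NPLOC4 (0.10 ± 0.06) and UFD1 (-0.06 ± 0.10). With library totals 5 genes of this list fell and 2 rose. The count of falls was also 5 without IgG library 2 or antagonist library 1 and 6 without antagonist library 3 or with DESeq2.

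In the list of the PERK arm and integrated stress response, 7 of 24 genes fell and 1 rose (median -0.05), a share of 33.3% near the background. EIF2S1, the eIF2 alpha subunit that PERK phosphorylates (-0.37 ± 0.07), the serine synthesis genes and ATF4 targets PSAT1 (-0.36 ± 0.07) and PHGDH (-0.27 ± 0.06) and the phosphatase catalytic subunit PPP1CC (-0.29 ± 0.08) fell. PPP1CC lost its call in 4 of 12 alternatives, among them those without antagonist library 1 or 3, and was -0.18 without IgG library 1. With length and GC trends taken out PSAT1 was -0.18 and PPP1CC -0.16, neither past the threshold. PPP1R15B, a subunit that directs the phosphatase to eIF2 alpha, rose by 0.20 ± 0.06. The list had 0 higher calls without antagonist library 1 or 2. The number that fell was 3 with library totals and 4 without antagonist library 3. PPP1R15A, the stress-induced counterpart of PPP1R15B, stood at 0.16 ± 0.06 (edgeR adjusted p = 0.0708). It passed with library totals (0.24), with DESeq2 size factors (0.18) and without IgG library 1 (0.18). Among other targets of ATF4 or DDIT3, DDIT4 (-0.23 ± 0.06) and SLC3A2 (-0.22 ± 0.05) fell, while TRIB3 (-0.19 ± 0.07, adjusted p = 0.0504 by edgeR), CHAC1 (0.12 ± 0.17), ATF3 (-0.34 ± 0.23) and ASNS (0.07 ± 0.09) did not pass.

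In the list of the ATF6 arm 1 of 10 tested genes fell and 2 rose (median -0.03), near the background. The ER-anchored factors CREB3L2 (0.38 ± 0.06) and ATF6B (0.28 ± 0.08), the paralogue of ATF6, rose. With length and GC trends taken out CREB3L2 was 0.22, still past the threshold, and ATF6B was 0.22 and no longer past it, nor was ATF6B without antagonist library 1 (0.24). NFYA, a subunit of the factor that binds the CCAAT box of ERSE, fell by 0.19 ± 0.06, a call kept in 3 of 12 alternatives. The Golgi proteases that cut ATF6 did not pass, with MBTPS1 at -0.01 ± 0.06 and MBTPS2 at -0.05 ± 0.10.

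**Figure D4:**
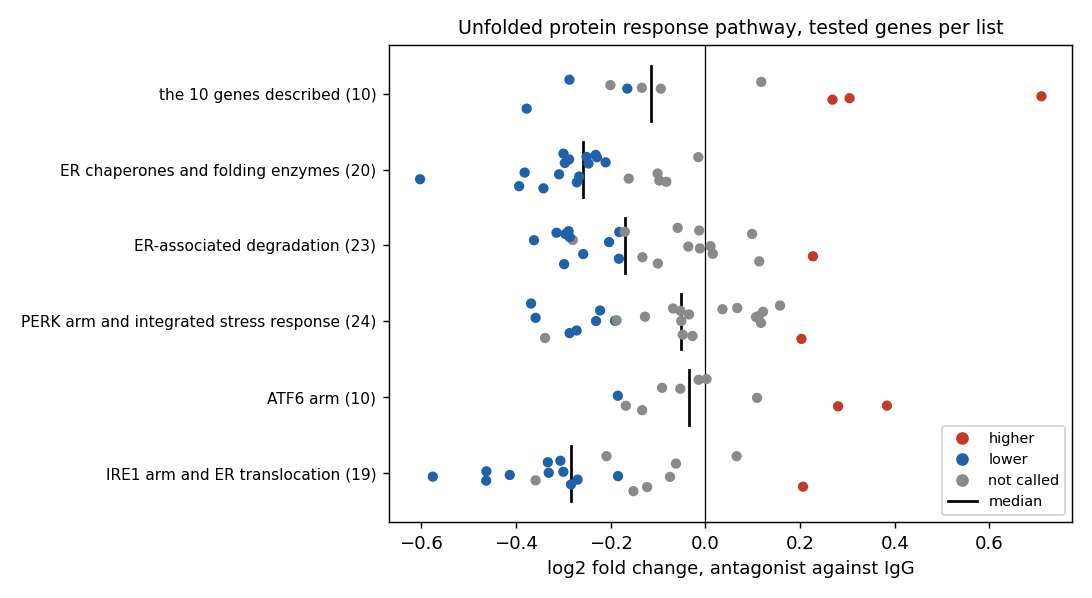
Log2 fold change, antagonist against IgG, of each tested gene in the 10 described genes and in 5 lists of the same pathway (number tested in brackets), coloured by call, with the median as a black bar. The chaperone list has 15 lower and 0 higher calls (median -0.26), while the 10 genes have 3 of each (median -0.11).

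In the agonist set only 5 pathway genes were listed. That table held no gene with a log2 fold change between -0.25 and 0.12, and 99.9% of its genes passed the test, 55.6% higher and 44.2% lower, so passing it says nothing more about them. Levels are CPM of listed counts, whose column totals ran from 2764479 to 3522203 and are not library depths. The zero of fold changes is uncertain. Among agonist libraries, library 1 was the odd one (chi-square divided by degrees of freedom: 24.9 and 26.6 with the others, 3.74 for the remaining pair). CRELD2, an ER folding factor, had 325, 334 and 341 CPM with IgG and 448, 451 and 392 CPM with the agonist (0.37 ± 0.08). SIL1, the exchange factor of HSPA5, had 349, 413 and 316 CPM with IgG and 468, 458 and 398 CPM with the agonist (0.30 ± 0.10). The groups overlapped for SIL1, which stood at -0.0042 with the length and GC trends taken out. BLOC1S1, an mRNA that IRE1 is known to degrade, had 93.3, 135 and 93.1 CPM with IgG and 172, 167 and 115 CPM with the agonist (0.50 ± 0.17), again with overlap, and between 0.16 and 0.70 over 12 alternatives, 4 of which did not pass. FAF2, which recruits VCP, fell from 425, 444 and 454 to 319, 315 and 321 CPM (-0.47 ± 0.07). ASNS, an ATF4 target, fell from 242, 216 and 244 to 168, 185 and 167 CPM (-0.44 ± 0.09).

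The effects of the antibodies on these 5 genes were compared as the antagonist effect minus the agonist effect, in 867 genes tested in both tables, of which 58.8% differed (edgeR). The difference was -0.53 ± 0.10 for CRELD2 (adjusted p = 0.000339), which stood at -0.16 ± 0.06 with the antagonist. For SIL1 it was -0.53 ± 0.13 (adjusted p = 0.00232), for BLOC1S1 -0.86 ± 0.26 (adjusted p = 0.0101), for ASNS 0.50 ± 0.13 (adjusted p = 0.00298) and for FAF2 0.29 ± 0.09 (adjusted p = 0.0126). Each set was scaled on its own, and the agonist table held no gene near 0, so a difference was likely before any test.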

How the data were processed

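RNA sequencing libraries of U937 cells were compared within 2 sets, each with 3 antibody and 3 IgG libraries. The authors deposited 1 table per set of whole-number read counts per gene, not normalized. HISAT2 and Cufflinks were used with build hg38, per the submitters' processing notes. For versions, counting program, annotation and strand: not given in the sources used here. Columns repeat a group name with no replicate number, so they were assigned to groups only. Rows with no gene symbol held 0.0678% to 0.105% of counts in the antagonist set and were left out.

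The test was edgeR 4.0.16, run in R 4.3.3 (filterByExpr, TMM scaling, robust quasi-likelihood test, Benjamini-Hochberg adjustment over all tested genes). Standard errors came from the fold change and the F statistic. Antibodies were compared by an interaction term for set and treatment. The procedure was also run on simulated counts, with the same scatter set for every gene and no odd library. That run gives no error rate for these data. Alternatives were DESeq2 1.42.0, its size factors, library totals, 2 other filters, removal of length and GC trends by loess (95.2% of tested genes of the antagonist set and 96.6% of the agonist set had a length) and leaving out each library.

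Named genes were the 10 members, HSPA5, PPP1R15A, up to 4 passing genes with the largest change in each pathway list, and the 3 genes most like XBP1. Others, named to account for a list or an overlap, were chosen after their values were seen. The members and lists were chosen with earlier results of these data known. No sequences of proteins were used here. Some genes that these rules would name are not reported here.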

Additional observations from a re-analysis of the deposited data

Results flagged for a closer look

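The effects of the antagonist and the agonist differed, by the edgeR interaction test, for all 5 pathway genes that both tables held, with antagonist minus agonist differences of 0.50 for ASNS, -0.86 for BLOC1S1, -0.53 for CRELD2, 0.29 for FAF2 and -0.53 for SIL1. FAF2 was lower with both antibodies, while for CRELD2, SIL1 and BLOC1S1 the antagonist value was below 0 and the agonist value above it. All 5 differences passed in each of 17 alternatives, which used the same listed genes and did not include removal of length and GC trends. With those trends taken out the agonist value of SIL1 was -0.0042. Among all 867 genes tested in both sets, 58.8% differed. The genes entered this comparison by being listed in the agonist table, whose zero is uncertain. That table held no gene with an agonist log2 fold change between -0.25 and 0.12. A difference from the antagonist was therefore likely before any test.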

How the results depend on the processing

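ERN1 and XBP1 kept their direction and their call in all 12 alternatives. The number of members called was 6 in all, 3 with length and GC trends removed (1 higher) and 2 to 6 when 1 library was left out, with 1 to 3 higher and 1 to 3 lower. Pathway genes called numbered 49, and 31 to 48 with 1 library left out. All genes called numbered 4978, and 3143 to 5075 with 1 library left out. The share of calls that were higher was 43.1%, and 65.4% with library totals, which moved the median log2 fold change from -0.01 to 0.07. For the agonist 903 genes were called and 582 with those trends removed, and higher calls went from 55.7% to 44.2% with DESeq2 size factors, 43.5% with DESeq2 and 45.4% after trend removal. Direction turned for DDIT3 after trend removal (0.0086), for SEL1L without IgG library 1 (0.012, against a lowest value of -0.13 without IgG library 2) and for SIL1 with the agonist after trend removal (-0.0042). The cause was not tested. No paired analysis was possible because the columns carry no replicate numbers. Trend removal was not run for the difference between antibodies. ATF6 and EIF2AK3 had the fewest counts of the 10 genes, 163 to 292 per library.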
